A study of Mus musculus with 27 samples.

Results

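The genes described here restrain signalling through phosphoinositide 3-kinase (PI3K) and the kinase mTOR in mouse macrophages. They were chosen by symbol from the deposited count table: Pik3ip1, Irs2, Ddit4, Sesn1, Sesn2, Sesn3, Tsc1, Tsc2, Foxo1 and Foxo3. All 10 were among the 29872 genes of the table, and all 10 were among the 14589 genes with enough counts to be tested. Each was compared across 27 RNA-seq libraries in 8 groups.

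PI3K is switched on by growth factor, insulin and cytokine receptors and makes the membrane lipid that activates the kinase AKT. AKT then inhibits the TSC complex, which would otherwise hold mTOR complex 1 in check, and keeps FOXO transcription factors out of the nucleus. Brakes act at each level: Pik3ip1 binds and inhibits PI3K at the membrane, Ddit4 (also called REDD1) relieves the inhibition of the TSC complex, sestrins couple amino acid shortage and stress to lower mTOR complex 1 activity, and FOXO factors switch on genes of quiescence and catabolism. Irs2 is the odd member, since it is the adaptor that carries insulin, IGF and IL4 receptor signals to PI3K, and it belongs here as a known FOXO target in that feedback loop. In macrophages this pathway sets growth, metabolism and the strength of alternative activation.

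Macrophages were grown for 5 days from bone marrow of male C57BL/6 mice aged 8 to 10 weeks in 20% serum and 10% L-cell conditioned medium. They were then kept for 24 h with vehicle, 10 ng/ml IL4, 500 nM corticosterone or 100 nM dexamethasone, so that the doses of the natural and the synthetic glucocorticoid were not matched. Wild-type cells carried LysM-Cre+/+; GRIP1wt/wt (their titles say BL6), and knockout cells carried LysM-Cre+/+; GRIP1fl/fl, so both genotypes had the Cre recombinase, which is driven from the Lyz2 locus of myeloid cells. GRIP1 is the protein of Ncoa2, a coregulator of the glucocorticoid receptor. Each wild-type group and the knockout IL4 group (numbered 1, 2 and 4) had 3 libraries, and the other knockout groups had 4.

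Libraries held 20162729 to 48023102 counts. Ncoa2 stood at 55.7 to 93.4 CPM (counts per 1000000 of the TMM-scaled library size) in wild-type libraries and at 16.1 to 26.0 CPM in knockout libraries, which does not tell how complete the loss was, since counts cover the whole gene. Of the markers checked, the 7 macrophage genes summed to 5230 to 6600 CPM in every library, while T and NK, B, dendritic, and mast and erythroid cell lists each stayed at or under 5.47 CPM. The summed level of the 7 neutrophil genes was between 41.5 and 289 CPM in wild-type libraries and between 5.82 and 16.2 CPM in knockout ones, and for the 5 stromal and endothelial genes it was 168 to 736 CPM against 15.7 to 57.3 CPM. Arg1, an IL4 marker, was at 491 to 947 CPM with IL4. It was also at 67.1 CPM in wild-type dexamethasone library 1 and 68.0 CPM in knockout dexamethasone library 2. Knockout vehicle libraries 2 and 3 were at 117 and 78.4 CPM. Knockout dexamethasone library 4, at 12.2 CPM, was below these 4 libraries and is not counted with them as high in Arg1. Whether libraries of a group came from different mice is not stated in the labels, and the p-values then cover only the spread among these libraries. In bulk RNA fewer cells of a type cannot be told apart from less RNA per cell.

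Per kilobase of exon in wild-type vehicle cells, Sesn1 was the most abundant of these transcripts and Pik3ip1 the least. The group mean level per kilobase in wild-type vehicle cells was 44.6 for Sesn1, 13.6 for Sesn2, 12.3 for Foxo3, 10.1 for Tsc2, 4.97 for Irs2, 3.75 for Tsc1, 3.71 for Ddit4, 1.89 for Foxo1, 0.647 for Sesn3 and 0.156 CPM per kilobase for Pik3ip1. Of the neighbours in that order, Sesn2 and Foxo3 overlapped between wild-type vehicle libraries, and so did Tsc1 and Ddit4, while the other pairs did not. Across the 8 groups the mean level of Ddit4 per kilobase ran from 1.53 with vehicle in knockout cells to 64.3 with dexamethasone in wild-type cells, where it stood at the top of the list, and Pik3ip1 ran from 0.0883 to 1.33. The other 8 genes stayed within a narrower span on the log2 scale, narrowest for Foxo3 (12.3 to 14.2 CPM per kilobase) and widest for Irs2 (4.97 to 9.43).

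**Figure D1:**
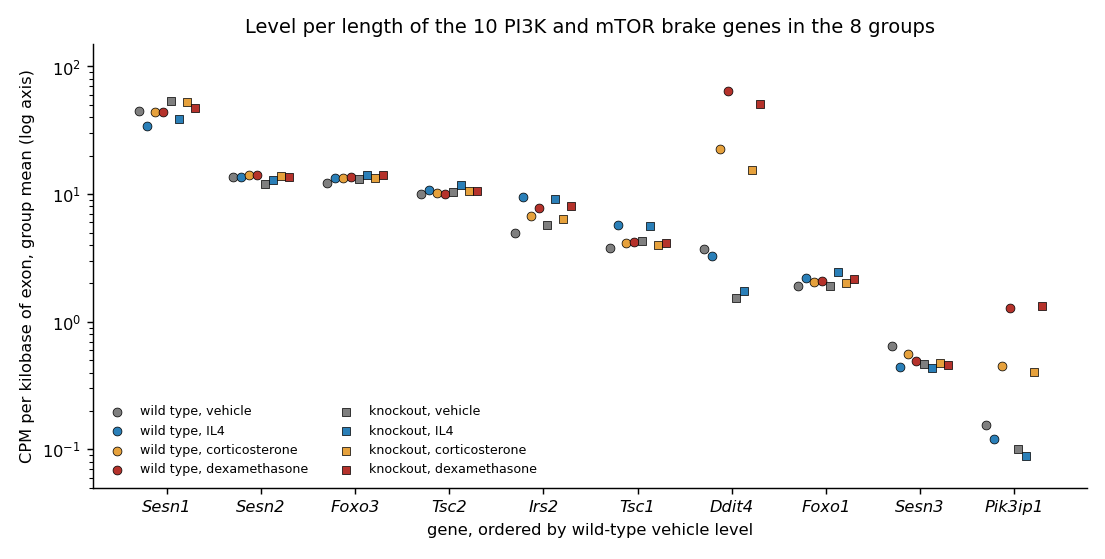
Group mean level of each gene in CPM per kilobase of exon (vertical, log axis), with genes ordered along the horizontal axis by their wild-type vehicle level. Circles are wild-type and squares knockout groups, coloured by treatment. Ddit4 (1.53 to 64.3) and Pik3ip1 (0.0883 to 1.33) spread over the treatments, while the other genes stay close together.

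Ddit4 and Pik3ip1 were raised by both glucocorticoids in both genotypes and were not raised by IL4. With dexamethasone the mean of Ddit4 was 17.3 times the vehicle mean in wild-type and 33.3 times in knockout cells, and that of Pik3ip1 was 8.18 and 13.3 times. Among the 14589 genes tested, ranked by fitted log2 fold change, Ddit4 took place 20 in wild-type and 6 in knockout cells with dexamethasone, and Pik3ip1 places 37 and 13.

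Ddit4 (ENSMUSG00000020108, GRCm38 chr10:59949669-59951834, minus strand, protein coding, 1755 exonic bases) is induced by stress, energy shortage and glucocorticoids and lowers mTOR complex 1 activity through the TSC complex. In wild-type libraries 1, 2 and 3 it was at 9.66, 4.38 and 5.50 CPM with vehicle, 32.0, 33.0 and 53.1 CPM with corticosterone, and 70.0, 112 and 156 CPM with dexamethasone. In the 4 knockout libraries it was at 2.67, 2.58, 2.42 and 3.09 CPM with vehicle, 35.1, 16.6, 21.3 and 34.8 CPM with corticosterone, and 127, 34.5, 103 and 93.3 CPM with dexamethasone. In either genotype every glucocorticoid library lay above every vehicle library.

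The fitted log2 fold change of Ddit4 with corticosterone was 2.61 ± 0.41 (SE) in wild-type cells (edgeR quasi-likelihood F test, Benjamini-Hochberg adjusted over all genes tested, adjusted p = 0.000336) and 3.33 ± 0.40 in knockout cells (adjusted p = 5.75e-06). With dexamethasone it was 4.13 ± 0.40 (adjusted p = 6.05e-07) and 5.06 ± 0.39 (adjusted p = 9.35e-09). These 4 calls held in all of the 13 to 15 alternatives run for each. Library 1 of the wild-type dexamethasone group and library 2 of the knockout group, the lowest for Ddit4 in their groups, were also the ones high in Arg1, and the part of that in the Ddit4 values was not tested. Without the 4 libraries high in Arg1 the fitted changes with dexamethasone were 4.37 in wild-type and 5.21 in knockout cells (adjusted p = 5.51e-08 and 1.59e-07). Without the 4 wild-type libraries numbered 1, of which the vehicle library was the highest and the dexamethasone library the lowest for Ddit4 in their groups, the wild-type change was 4.77 (adjusted p = 6.97e-06).

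With IL4, Ddit4 was at 7.37, 4.78 and 4.94 CPM in wild-type libraries and at 3.17, 3.36 and 2.63 CPM in knockout libraries, overlapping vehicle in both. The fitted change was −0.19 in wild-type cells (95% interval −1.12 to 0.75, adjusted p = 0.815), and in knockout cells it was 0.19 (−0.84 to 1.22, adjusted p = 0.822). Set directly against dexamethasone, Ddit4 was lower with IL4 by −4.31 ± 0.42 in wild-type (adjusted p = 1.25e-07) and −4.87 ± 0.44 in knockout cells (adjusted p = 3.33e-08).

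Pik3ip1 (ENSMUSG00000034614, chr11:3330401-3342971, plus strand, protein coding, 4272 exonic bases) encodes a membrane protein that binds the catalytic subunit of PI3K and lowers its activity. In wild-type libraries 1, 2 and 3 it was at 0.766, 0.521 and 0.717 CPM with vehicle, 1.89, 1.82 and 2.06 CPM with corticosterone, and 4.78, 4.52 and 7.09 CPM with dexamethasone. In knockout libraries 1 to 4 it was at 0.465, 0.410, 0.379 and 0.467 CPM with vehicle, 2.05, 1.27, 1.40 and 2.14 CPM with corticosterone, and 6.97, 3.58, 5.88 and 6.37 CPM with dexamethasone. No glucocorticoid library overlapped vehicle, and in both genotypes no dexamethasone library overlapped corticosterone.

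The fitted log2 fold change of Pik3ip1 with corticosterone was 1.53 ± 0.27 in wild-type (adjusted p = 0.000492) and 2.0 ± 0.25 in knockout cells (adjusted p = 3.28e-06), and with dexamethasone 3.03 ± 0.26 (adjusted p = 7.29e-09) and 3.73 ± 0.24 (adjusted p = 3.04e-11). With IL4, Pik3ip1 was at 0.60, 0.569 and 0.380 CPM in wild-type and 0.421, 0.306 and 0.405 CPM in knockout libraries, overlapping vehicle in both. The fitted changes were −0.37 (−1.0 to 0.26) and −0.16 (−0.82 to 0.49), and neither was called. For IL4 against dexamethasone Pik3ip1 was at −3.40 in wild-type (adjusted p = 8.84e-10) and −3.89 in knockout cells (adjusted p = 1.01e-10). The gene is low, at 7 to 205 counts in a library, so counting error is part of its spread. An RNA on the opposite strand, Gm12592, shares 91 of its exonic bases, and whether the authors counted by strand is not known here.

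The dexamethasone groups also stood above the corticosterone groups for both genes, at unmatched doses. For Pik3ip1 the difference was 1.51 ± 0.23 in wild-type (adjusted p = 0.00233) and 1.73 ± 0.20 in knockout cells (adjusted p = 2.98e-05). For Ddit4 it was 1.73 ± 0.32 in knockout cells (adjusted p = 0.0184), although dexamethasone library 2 there was under 2 of the corticosterone libraries. In wild-type cells, without overlap, it was 1.52 ± 0.37 and missed the threshold (adjusted p = 0.162). Only 0.185% of all genes tested were called between the glucocorticoids in wild-type and 0.322% in knockout cells, where 1 and 2 of the 10 genes were called.

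The Ddit4 difference in wild-type cells was called with a replicate block (1.52, adjusted p = 0.0370), with DESeq2 (1.52, adjusted p = 0.0419) and without the libraries high in Arg1 (1.77, adjusted p = 0.0101). In knockout cells it was lost without dexamethasone library 1 (1.52, adjusted p = 0.0525), dexamethasone library 4 (1.71, 0.0632), corticosterone library 2 (1.57, 0.0986) or corticosterone library 3 (1.63, 0.0991), or with only these groups in the fit (1.73, 0.219). The Pik3ip1 difference in wild-type cells was lost with only these groups in the fit (1.51, adjusted p = 0.105).

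**Figure D2:**
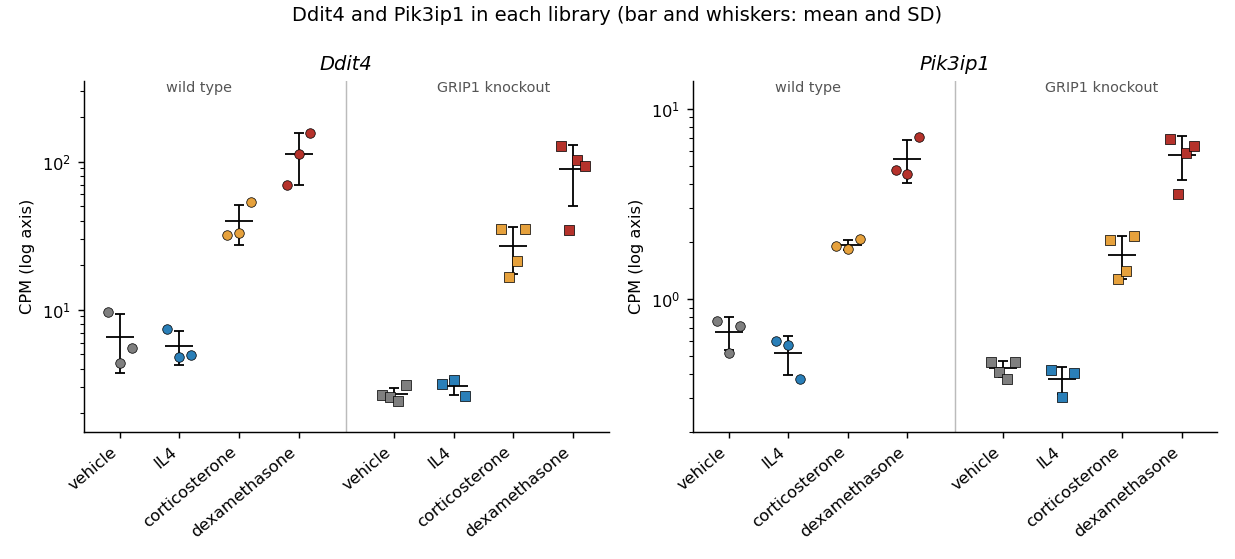
CPM of Ddit4 and Pik3ip1 (vertical, log axes) in each of the 27 libraries by treatment, with wild-type groups on the left and GRIP1 knockout groups on the right of each panel. Points are libraries, and bars with whiskers are means with SD. Vehicle and IL4 libraries lie together, all corticosterone and dexamethasone libraries lie above them, and the dexamethasone groups are highest by mean. For Ddit4 in knockout cells dexamethasone library 2 (34.5 CPM) lies below corticosterone libraries 1 and 4 (35.1 and 34.8 CPM).

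The 250 bases before the RefSeq start site are printed for Ddit4 and Pik3ip1, which rose together with glucocorticoids but differed there in composition. Irs2 is printed beside them. The gene positions given in this report are from GENCODE, which places these starts differently. By those positions all of the printed Pik3ip1 stretch and the last part of the Ddit4 stretch lie inside the gene. Sequences are from RefSeq (GRCm38.p6), 5′ to 3′ on the gene's strand, with each CpG dinucleotide in capitals, for Ddit4 at chr10:59951771-59952020 (minus strand), Pik3ip1 at chr11:3330481-3330730 (plus strand) and Irs2, which was called with IL4 and dexamethasone in both genotypes, at chr8:11008930-11009179 (minus strand).
Ddit4: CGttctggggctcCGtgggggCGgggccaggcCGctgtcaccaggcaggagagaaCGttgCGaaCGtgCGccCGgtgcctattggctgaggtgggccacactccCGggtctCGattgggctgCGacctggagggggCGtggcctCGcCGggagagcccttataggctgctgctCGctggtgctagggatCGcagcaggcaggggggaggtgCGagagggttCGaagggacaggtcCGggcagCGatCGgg
Pik3ip1: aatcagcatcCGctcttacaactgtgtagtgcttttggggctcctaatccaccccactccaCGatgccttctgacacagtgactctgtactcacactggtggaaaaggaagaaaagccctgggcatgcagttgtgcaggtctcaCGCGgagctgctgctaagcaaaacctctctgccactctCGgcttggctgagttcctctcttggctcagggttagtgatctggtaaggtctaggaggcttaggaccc
Irs2: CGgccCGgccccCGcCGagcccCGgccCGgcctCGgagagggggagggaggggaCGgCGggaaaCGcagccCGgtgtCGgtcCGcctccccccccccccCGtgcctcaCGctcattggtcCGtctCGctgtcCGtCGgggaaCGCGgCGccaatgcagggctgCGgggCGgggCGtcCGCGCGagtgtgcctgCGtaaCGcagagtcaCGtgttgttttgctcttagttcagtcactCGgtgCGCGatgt
The Ddit4 stretch held 22 CpG and 70.0% G and C, and that of Irs2 34 CpG and 72.8%. The Pik3ip1 stretch held 5 CpG and 53.6%, close to the medians of 6 CpG and 52.4% over the 32851 promoters of the table.

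The 4 motifs were searched on both strands, from 250 bases before to 50 bases after the RefSeq start sites. The 10 genes have 11 such promoters. The glucocorticoid receptor core AGAACA, present in 19% of all promoters of this length, and the full site of AGAACA and TGTTCT 3 bases apart, present in 0.00913%, matched none of the 11. The STAT6 motif of TTC and GAA 4 bases apart, present in 6.95% of all promoters, matched in Pik3ip1 as TTCAGCTGAA from base 12 after the start, which reads the same on both strands and is 1 site. The FOXO motif GTAAACA, present in 3.65%, matched in 1 of the promoters of Sesn1, on the reverse strand as TGTTTAC from base 23 after the start. These are letter matches in a short window and say nothing about binding of a factor there or elsewhere.

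Among 10049 genes with at least 5 CPM in some group, the 3 whose 8 group means of log2 CPM were most like those of Ddit4 or Pik3ip1, by Pearson correlation, included the other of the pair. For Ddit4 they were Tigd2 (r = 0.9931), Il15ra (0.9886) and Pik3ip1 (0.9858), and for Pik3ip1 they were Deptor (0.9861), Ddit4 (0.9858) and Sco2 (0.9817). By Spearman correlation Ddit4 and Pik3ip1 had rho = 0.952, below the third place of either gene (0.9762), so neither was among the nearest to the other. Ties left 21 genes at or above the value of the third place for Ddit4, of which Zcchc9 alone was at 1.0, and 15 for Pik3ip1. Correlation leaves out the size of change. The group means spanned 5.29 log2 units for Ddit4 and 3.65 for Pik3ip1. The span was 1.33 for Tigd2, 2.24 for Il15ra, 1.25 for Deptor, 0.355 for Sco2 and 0.179 for Zcchc9. The points are 8 group means that share vehicle groups and library scaling, so these values are a description.

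**Figure D3:**
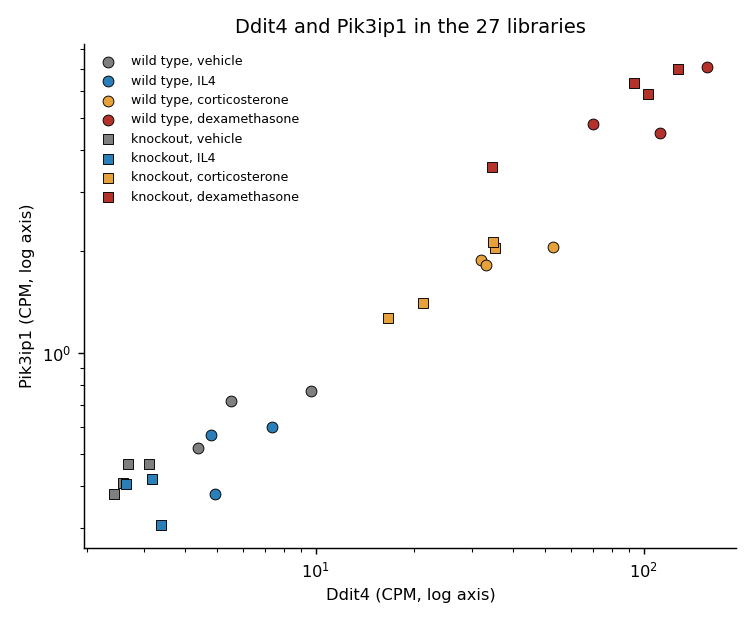
CPM of Pik3ip1 (vertical, log axis) against CPM of Ddit4 (horizontal, log axis) in the 27 libraries, coloured by treatment with circles for wild-type and squares for knockout libraries. Dexamethasone libraries lie at the upper right, from 34.5 to 156 CPM of Ddit4, and vehicle and IL4 libraries at the lower left, from 2.42 to 9.66 CPM.

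Irs2 (ENSMUSG00000038894, chr8:10984681-11008458, minus strand, protein coding) rose with IL4 and with dexamethasone in both genotypes, and with corticosterone in wild-type cells. In wild-type libraries it was at 30.3, 34.2 and 29.7 CPM with vehicle, 52.7, 65.9 and 60.3 CPM with IL4, 42.8, 43.0 and 42.1 CPM with corticosterone, and 48, 54.2 and 46.3 CPM with dexamethasone. All 9 treated libraries lay above all 3 vehicle libraries. The fitted change in wild-type cells was 0.93 ± 0.12 with IL4 (adjusted p = 3.41e-06), 0.66 ± 0.12 with dexamethasone (adjusted p = 0.000581) and 0.44 ± 0.12 with corticosterone (adjusted p = 0.0334).

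In knockout libraries Irs2 was at 30.0, 37.4, 41.7 and 35.7 CPM with vehicle, 56.7, 54.6 and 62.1 CPM with IL4, 39.7, 32.3, 43.2 and 47.2 CPM with corticosterone, and 44.3, 52.0, 50.1 and 59.3 CPM with dexamethasone. IL4 and dexamethasone libraries lay above vehicle, and corticosterone libraries overlapped it. The fitted change was 0.67 ± 0.11 with IL4 (adjusted p = 0.000121), 0.51 ± 0.11 with dexamethasone (adjusted p = 0.00131) and 0.16 ± 0.11 with corticosterone (adjusted p = 0.401). The corticosterone call in wild-type cells held in 6 of 13 alternatives, and was lost without vehicle library 1 (0.42, adjusted p = 0.114) or 3 (0.40, 0.140), or without any 1 of the 3 corticosterone libraries (0.43 to 0.45, adjusted p from 0.0813 to 0.103). IL4 against dexamethasone was not called for Irs2 (0.27 ± 0.12, adjusted p = 0.100 in wild-type cells), but was with a replicate block (adjusted p = 0.0247). Dexamethasone against corticosterone in knockout cells went the same way (0.34 ± 0.11, adjusted p = 0.238, and 0.0292 with the block).

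Of the TSC complex, whose 2 core proteins together restrain mTOR complex 1, Tsc1 moved with IL4 and Tsc2 hardly did. Tsc1 (ENSMUSG00000026812, chr2:28641228-28691167, plus strand), which stabilises its partner, was at 42.7, 45.5 and 44.8 CPM in wild-type vehicle libraries and at 66.3, 69.2 and 68.8 CPM with IL4. In knockout cells it was at 48.3, 48.2, 54.9 and 50.3 CPM with vehicle and 64.6, 69.3 and 65.7 CPM with IL4. The IL4 libraries did not overlap vehicle in either genotype, and the fitted changes were 0.62 ± 0.08 (adjusted p = 3.00e-06) and 0.40 ± 0.08 (adjusted p = 0.000424), which held in every alternative run.

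Tsc1 was also 0.44 ± 0.08 higher with IL4 than with dexamethasone in either genotype (adjusted p = 0.000154 and 6.58e-05). Neither glucocorticoid gave a call for Tsc1, with fitted changes from −0.09 to 0.17. Tsc2 (ENSMUSG00000002496, chr17:24595816-24632630, minus strand), the part of the complex that acts on the GTPase Rheb, ranged only from 90.8 to 125 CPM over all 27 libraries. Its 1 call was with IL4 in knockout cells (0.20 ± 0.07, adjusted p = 0.0477), where libraries stood at 106, 110 and 125 CPM against 99.9, 90.8, 102 and 102 CPM with vehicle. That call held in 5 of 14 alternatives and was lost without IL4 library 4 (0.13, adjusted p = 0.289) or 2 (0.20, 0.0811) and without any 1 vehicle library (0.17 to 0.22, adjusted p from 0.0565 to 0.119). The Tsc2 exons share 693 bases with Pkd1 on the other strand.

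The sestrins, stress-induced proteins that act through the amino acid sensing complex upstream of mTOR complex 1, did not move as a group. Sesn1 (ENSMUSG00000038332, chr10:41809935-41908424, plus strand), a p53 and FOXO target, fell with IL4. In knockout libraries it was at 212, 198, 196 and 246 CPM with vehicle and at 159, 163 and 145 CPM with IL4, without overlap, and fell by 0.45 ± 0.12 on the log2 scale (adjusted p = 0.00749), a call that held in 14 of 14 alternatives.

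In wild-type libraries 1, 2 and 3 Sesn1 was at 146, 183 and 204 CPM with vehicle and 125, 135 and 148 CPM with IL4, and the ranges overlapped between 146 and 148 CPM. Each IL4 library was below the vehicle library of the same number, and Sesn1 fell by 0.38 ± 0.13 on the log2 scale (adjusted p = 0.0255). That call held in 7 of 13 alternatives and was lost without vehicle library 2 (−0.36, adjusted p = 0.0744) or 3 (−0.27, 0.168), or IL4 library 1 (−0.32, 0.118) or 2 (−0.37, 0.0761). In wild-type cells the libraries of a number kept their place: Sesn1 was lowest in library 1 and highest in library 3 with every treatment, at 149, 175 and 203 CPM with corticosterone and 145, 176 and 204 CPM with dexamethasone. For IL4 against dexamethasone Sesn1 was at −0.36 in wild-type cells (adjusted p = 0.0337), a call that held in 8 of 14 alternatives. In knockout cells that difference was not called (−0.27, adjusted p = 0.0876).

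Sesn3 (ENSMUSG00000032009, chr9:14275067-14333101, plus strand), a FOXO target, was at 10.1, 9.38 and 10.1 CPM in wild-type vehicle and 7.81, 5.99 and 6.25 CPM in wild-type IL4 libraries, without overlap. The fitted change was −0.56 ± 0.16 (adjusted p = 0.00950) and was lost only without IL4 library 2 (−0.48, adjusted p = 0.0599) among 13 alternatives. In knockout cells it was at 8.13, 6.27, 6.57 and 7.57 CPM with vehicle and 5.86, 7.25 and 6.76 CPM with IL4, which overlapped (−0.11 ± 0.15, adjusted p = 0.655). The difference between the genotypes in this response was 0.45 with an interval of −0.01 to 0.91 (adjusted p = 0.550), so it was not shown. With dexamethasone Sesn3 was at 7.02, 7.69 and 7.80 CPM in wild-type cells, below all vehicle libraries, at −0.39 ± 0.16 (adjusted p = 0.118), and this was called with a replicate block (adjusted p = 0.0479).

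Sesn2 (ENSMUSG00000028893, chr4:132492032-132510501, minus strand), the leucine-sensing sestrin and a target of the integrated stress response, ranged from 39.3 to 52.3 CPM and was called in no comparison. Its nearest approach was in knockout cells with corticosterone, at 44.9, 48.9, 51.0 and 47.8 CPM against 39.6, 41.1, 43.8 and 43.4 CPM with vehicle. These groups did not overlap, and the change of 0.20 ± 0.07 (adjusted p = 0.0916) was called with a replicate block (adjusted p = 0.0117).

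**Figure D4:**
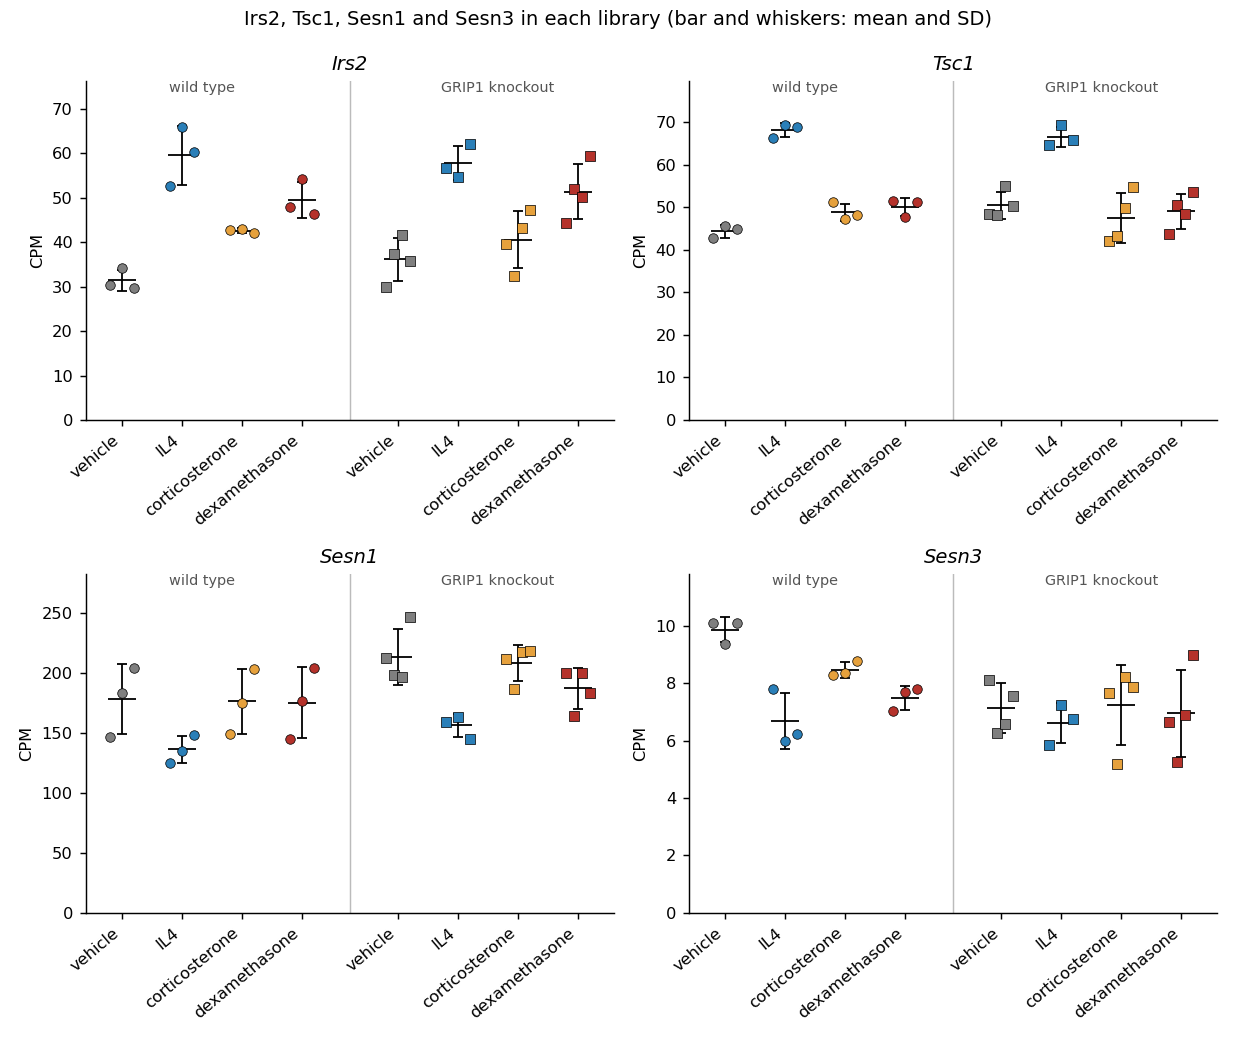
CPM of Irs2, Tsc1, Sesn1 and Sesn3 (vertical, linear axes from 0) in each of the 27 libraries by treatment, with wild-type groups on the left and GRIP1 knockout groups on the right of each panel. Points are libraries, and bars with whiskers are means with SD. By mean the IL4 group is the highest for Irs2 and Tsc1 and the lowest for Sesn1 in both genotypes, while for Irs2 wild-type IL4 library 1 (52.7 CPM) lies below dexamethasone library 2 (54.2 CPM).

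The FOXO genes encode transcription factors that AKT inactivates by phosphorylation, so their transcript level is separate from their activity. Foxo3 (ENSMUSG00000048756, chr10:42181841-42276755, minus strand) stayed between 81.9 and 116 CPM and was called in none of the 17 comparisons. Foxo1 (ENSMUSG00000044167, chr3:52268336-52353221, plus strand) stayed between 15.0 and 26.2 CPM, and its 1 call was with IL4 in knockout cells, at 20.6, 16.5 and 26.2 CPM against 17.0, 15.2, 15.3 and 18.6 CPM with vehicle (0.36 ± 0.12, adjusted p = 0.0315).

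The Foxo1 groups overlapped, and without IL4 library 4 the change was 0.17 (adjusted p = 0.350), without vehicle library 2 it was 0.32 (0.0674), without vehicle library 3 it was 0.31 (0.0899), and without the libraries high in Arg1 it was 0.23 (0.220). The antisense RNA Gm20402 shares 674 of the exonic bases of Foxo1.

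By count, IL4 in wild-type cells changed 4 of the 10 genes, 2 up and 2 down, where 30.1% of all genes tested were called in either direction. In knockout cells it changed 5, of which 4 rose and 1 fell, where 26.5% of all genes were called. Corticosterone changed 3 in wild-type cells (5.94% of all genes called) and 2 in knockout cells (12.1%), and dexamethasone changed 3 in each genotype (13.7% and 18.4%), all of them upward. Between IL4 and dexamethasone, 4 differed in wild-type cells (31.7% of all genes called), with 1 higher under IL4, and 3 in knockout cells (38%), again with 1 higher, the latter becoming 5 called with a replicate block, which added Sesn1 (−0.25, adjusted p = 0.00856) and Tsc2 (0.17, 0.00898). The IL4 counts are not read as a property of these genes as a set, and the median size of change of the 10 genes with dexamethasone in wild-type cells was 0.16 log2 units, as for all genes. These comparisons share vehicle libraries.

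**Figure D5:**
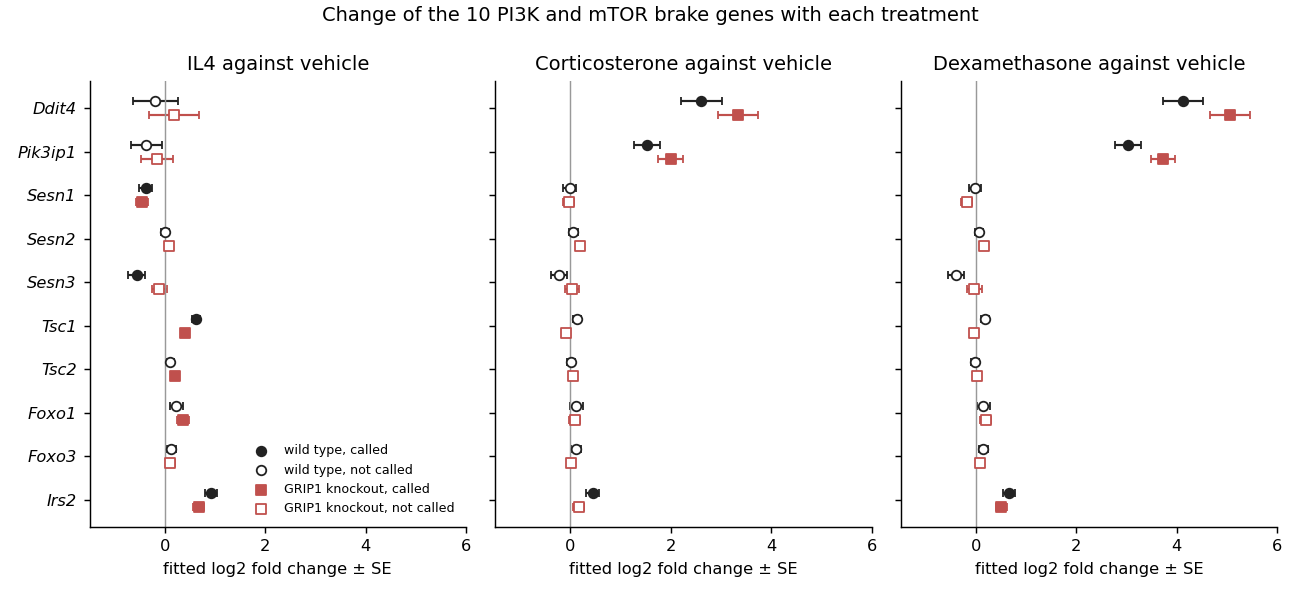
Fitted log2 fold change against vehicle (horizontal, with SE) for each of the 10 genes (vertical) in 3 panels, 1 for each treatment. Black circles are wild-type and red squares knockout cells, filled where the adjusted p was under 0.05. Ddit4 and Pik3ip1 lie far to the right with corticosterone and dexamethasone, from 1.53 to 5.06, and every other change lies between −0.56 and 0.93.

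Other genes of the pathway were counted by list, and the counts stand beside the shares of all genes called in wild-type (30.1%, 5.94% and 13.7% with IL4, corticosterone and dexamethasone) and in knockout cells (26.5%, 12.1% and 18.4%). Of 25 PI3K and AKT genes, IL4 raised 2 and lowered 7 in wild-type cells, corticosterone raised 1 and lowered 2, and dexamethasone raised 5 and lowered 3. In knockout cells IL4 raised 1 and lowered 3 of them, corticosterone raised 6 and lowered 1, and dexamethasone raised 7 and lowered 4, and none was called for a difference in response between the genotypes. Pik3r1, a regulatory subunit of PI3K, rose with corticosterone (0.36 ± 0.09, adjusted p = 0.0125) and dexamethasone (0.57 ± 0.09, adjusted p = 5.01e-05), and the adaptor Pik3ap1 fell with all 3 agents (by 0.78, 0.41 and 0.58 with IL4, corticosterone and dexamethasone). Inpp4b, a phosphatase of PI3K lipids, fell by 2.40 ± 0.19 with IL4, from a mean of 52.1 to 9.90 CPM (adjusted p = 6.57e-09), and the catalytic subunit Pik3cg fell by 0.76 ± 0.15 (adjusted p = 0.000293). Of the FOXO factors and targets tested, 17 in number, IL4 raised 2 and lowered 6 in wild-type cells and raised 2 and lowered 4 in knockout cells. In wild-type cells they included S1pr1, a sphingosine phosphate receptor, at −1.40 ± 0.10 (adjusted p = 1.01e-09) and Il7r, the IL-7 receptor, at 1.06 ± 0.16 (adjusted p = 1.40e-05). Glucocorticoids also gave calls on this list in wild-type cells. With dexamethasone S1pr1 (−0.56), Sod2 (−0.50) and Bcl6 (−0.36) were lower and Insr (0.41) was higher, and with corticosterone Sod2 was lower (−0.43). The full glucocorticoid counts of this list are not given here.

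Of 20 genes of the mTOR complexes and their outputs, IL4 raised 2, corticosterone lowered 1, and dexamethasone raised 3 and lowered 1 in wild-type cells. In knockout cells IL4 raised 2, corticosterone raised 2 and lowered 2, and dexamethasone raised 3 and lowered 2. Deptor, an inhibitor that binds mTOR itself, was at 19.3, 24.8 and 26.1 CPM with vehicle in wild-type cells. It was at 26.2, 34.7 and 40.3 CPM with corticosterone and 39.0, 54.8 and 68.0 CPM with dexamethasone. Neither overlapped vehicle, but corticosterone and vehicle all but met (26.2 and 26.1 CPM), and the corticosterone change was not called. It rose by 1.21 ± 0.20 with dexamethasone in wild-type cells (adjusted p = 0.000150) and by 1.26 ± 0.17 in knockout cells (adjusted p = 1.16e-05). Prr5l, a component of mTOR complex 2, fell by 1.36 ± 0.14 with dexamethasone (adjusted p = 2.24e-07) and by 0.67 ± 0.14 with corticosterone (adjusted p = 0.00295), and Tfeb, which drives lysosomal genes, rose by 0.87 ± 0.09 with IL4 (adjusted p = 2.27e-07).

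Among 28 genes of amino acid sensing at the lysosome, IL4 raised 3 and lowered 4 in wild-type cells, corticosterone gave no call, and dexamethasone raised 4 and lowered 1. In knockout cells IL4 raised 2 and lowered 3, corticosterone raised 3 and lowered 1, and dexamethasone raised 4 and lowered 1. Slc38a9, an arginine sensor, rose by 0.71 ± 0.09 with IL4 (adjusted p = 1.90e-06), and the leucine transporter Slc7a5 fell by 0.63 ± 0.19 with dexamethasone (adjusted p = 0.0302). Of 9 AMPK subunits and kinases tested, IL4 raised 1 and dexamethasone 2 in wild-type cells, and in knockout cells IL4 raised 1 and lowered 1, corticosterone raised 1 and dexamethasone raised 3.

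Target genes of signals known to induce some of these brakes were counted in 3 further lists, which do not measure the signals themselves. Of 13 integrated stress response genes, IL4 raised 5 and dexamethasone 2 in wild-type cells, and in knockout cells IL4 raised 3, corticosterone lowered 4 and dexamethasone lowered 5 and raised 1. Of 10 p53 targets, IL4 raised 5 and lowered 1, and each glucocorticoid raised only Trp53inp1 in wild-type cells (0.75 ± 0.13, adjusted p = 0.000666 with corticosterone, and 1.41 ± 0.13, adjusted p = 4.19e-08 with dexamethasone). In knockout cells IL4 raised 2 of them and each glucocorticoid 1. Of 10 hypoxia targets, none rose in wild-type cells, and 5 fell with IL4, 2 with corticosterone and 3 with dexamethasone. Ddit4 is known as a hypoxia-induced gene too, and the part of hypoxia signalling in its values was not tested. In knockout cells IL4 raised 1 and lowered 4 of these targets, corticosterone lowered 1 and dexamethasone lowered 4.

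The genotypes were then compared within each treatment. In vehicle cells 2 of 10 were called, both lower in knockout, where 18.8% of all genes tested were called. At an unadjusted p under 0.05 there were 6 of 10 in vehicle cells, against 4280 of all 14589 genes. These were Ddit4, Sesn3, Pik3ip1 and Sesn2, at lower levels in knockout, and Sesn1 and Tsc1, at higher levels. The groups did not overlap for 4 of them. The share of all genes without overlap is not given here, so that count is not read as a property of these genes. The median size of the difference was 0.20 log2 units over the 10 genes and 0.14 over all genes. With IL4, corticosterone and dexamethasone 0 of 10 were called by edgeR or DESeq2, and 0 at an unadjusted p under 0.05, while 12.4%, 14.4% and 17.2% of all genes were called.

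Ddit4 in vehicle cells had all 4 knockout libraries (2.42 to 3.09 CPM) below all 3 wild-type libraries (4.38 to 9.66 CPM), at −1.27 ± 0.45 (adjusted p = 0.0497). The call held in 5 of 15 alternatives. It was −0.88 (adjusted p = 0.295) without wild-type library 1 and −1.37 (0.0689) without wild-type library 3, and without knockout library 1, 2, 3 or 4 the adjusted p was 0.0800, 0.0935, 0.118 and 0.0730. Sesn3 in vehicle cells was at −0.47 ± 0.15 (adjusted p = 0.0281), also without overlap, and was lost without wild-type library 1 (−0.45, adjusted p = 0.0879) or 3 (−0.45, 0.0822), without knockout library 2 (−0.43, 0.0721) or 3 (−0.43, 0.0798), or without the libraries high in Arg1 (−0.33, 0.216). Pik3ip1 was at −0.63 ± 0.28 (adjusted p = 0.129), again without overlap between 0.379 to 0.467 CPM in knockout and 0.521 to 0.766 CPM in wild-type libraries.

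Other measures moved with the genotype in the same vehicle libraries. Of 10 hypoxia targets, 9 were lower and 1 (Car9) higher in knockout vehicle cells, with a median of −0.94 against 0.02 for all genes. Vegfa was at 34.4, 21.5 and 13.6 CPM in wild-type libraries 1, 2 and 3 and at 5.42, 2.46, 3.33 and 7.01 CPM in knockout libraries (−2.34 ± 0.38, adjusted p = 0.000161), and Egln3 was at −2.55 ± 0.29 (adjusted p = 1.19e-06). These examples were picked after their values were seen. Vegfa and Egln3 were also called lower in knockout cells with IL4, corticosterone and dexamethasone (Vegfa −2.34, −1.88 and −2.14, Egln3 −2.04, −1.80 and −2.32). With those treatments none of the genes described here was called between the genotypes. Wild-type vehicle library 1 was the highest for Vegfa and Egln3 as well as for Ddit4. Neutrophil markers summed to 75.0 to 289 CPM in the wild-type vehicle libraries and 7.40 to 11.5 CPM in the knockout ones, and stromal and endothelial markers to 191 to 695 and 24.9 to 43.0 CPM, and the part of any of these in the differences of Ddit4, Sesn3 and Pik3ip1 was not tested.

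For these genes, no response to a treatment was shown to depend on GRIP1. Tests of the response in knockout minus that in wild-type cells called 0 of the 10 genes for IL4, corticosterone or dexamethasone with edgeR or DESeq2, where 0.0274%, 0.0206% and 0.185% of all genes were called, and 0, 1 and 0 of the 10 reached an unadjusted p under 0.05. That 1 was Tsc1 with corticosterone (−0.22 ± 0.11, unadjusted p = 0.0499). For Ddit4 the difference was 0.72 (−0.46 to 1.91) with corticosterone and 0.93 (−0.24 to 2.11) with dexamethasone, and for Pik3ip1 0.47 (−0.28 to 1.22) and 0.69 (−0.03 to 1.42). All 4 estimates were above 0 and all 4 intervals included 0. The 2 estimates of a gene subtract the same vehicle difference between the genotypes (−1.27 for Ddit4 and −0.63 for Pik3ip1). Their shared sign is therefore not 4 separate results. The mean levels reached with dexamethasone were 113 ± 43.0 (SD, n = 3) and 89.5 ± 39.4 CPM (n = 4) for Ddit4 and 5.47 ± 1.42 and 5.70 ± 1.48 CPM for Pik3ip1 in wild-type and knockout cells.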

How the data were processed

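The authors deposited 1 table of raw read counts, with a row for each gene and a column for each of the 27 libraries. Per the labels, poly(A) RNA was sequenced as paired reads after a strand-keeping NEBNext preparation. Per the submitters' processing notes, fastp 0.23.2, STAR 2.7.0, featureCounts and the mouse build mm10 (GRCm38) were used, and edgeR 3.38.4 for their tests. The sources used here do not give the strand setting of the counting, so values of genes with exons on both strands are less certain.

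Low genes were dropped by filterByExpr at a minimum count of 10, and TMM factors scaled the libraries. A single model of 8 group means was fitted to all 27 libraries in edgeR 4.0.16 (R 4.3.3), with 19 residual degrees of freedom and a common biological coefficient of variation of 0.122. Comparisons used its quasi-likelihood F test in the legacy, robust form, adjusted by Benjamini-Hochberg over the 14589 genes tested, and called at an adjusted p under 0.05. Changes are fitted log2 fold changes with SE and 95% intervals. The script was tested on simulated counts. Positions and exon lengths are from GENCODE vM21, which held 29815 of the 29872 identifiers. Levels were compared between genes only per kilobase of merged exons.

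The members, the gene lists and the tests were chosen with earlier results of these data known. All 10 members were tested in every comparison, and not every value is printed. From 8 pathway and target lists, up to 3 called genes a direction with the largest change and at least 5 CPM could be named for each treatment in wild-type cells, and those named are among them.

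No 2 libraries of a group agreed within sampling noise (lowest chi-square per degree of freedom 6.07). Replicate numbers are from the labels. Deviations of same-numbered libraries from their group means were correlated for each comparison. Between treatments within a genotype every pair was over 0.1 (0.112 to 0.713), except in dexamethasone against vehicle in knockout cells (0.00519 to 0.363). There only number 3 fell short. Between genotypes the correlations ran from −0.236 to 0.0342. The number was therefore taken to pair libraries of treatments within a genotype where every pair was over 0.1. This rule was applied to each comparison apart. Knockout dexamethasone and vehicle libraries each met it against corticosterone, so a lack of pairing between them was not shown. The reported fit has no term for the number, so its SE and adjusted p-values leave this pairing out. The replicate block, given as an alternative, added calls among the members and lost none. Alternatives were RLE scaling, no low count filter, edgeR's newer fit, only the groups compared, a replicate block, DESeq2 1.42.0, leaving out each library, leaving out the 4 libraries high in Arg1 and leaving out the 4 wild-type libraries numbered 1.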

Additional observations from a re-analysis of the deposited data

Results flagged for a closer look

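Foxo3 in the knockout vehicle group had 1 library apart from the others. Library 4 was at 109 CPM, and libraries 1, 2 and 3 were at 97.8, 96.4 and 95.6 CPM. The gap from the highest library to the next, as a share of the group's range, was above Dixon's 95% critical value of 0.829 for 4 samples. Of 30 gene and group values checked in the 3 groups of 4 libraries this was the 1 picked out, and chance alone picks about 1 in 20.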

How the results depend on the processing

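Of 2630 values of a gene in a comparison under an alternative, 2554 stayed on the same side of the threshold, 57 lost a call and 19 gained one, and no called change turned its direction. In 146 cases the sign differed where neither fit made a call, for changes of at most 0.38 log2 units. With single libraries left out, the number of the 10 genes called ranged from 2 to 4 for IL4 in wild-type and 3 to 5 in knockout cells, 2 to 3 for corticosterone in wild-type cells, 0 to 3 for knockout against wild type with vehicle, 1 to 2 for dexamethasone against corticosterone in knockout cells and 3 to 4 for IL4 against dexamethasone in either genotype, and it did not move in the other comparisons.

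For IL4 in knockout cells 3 were called, in place of 5, with no filter, with only the groups compared or without the 4 libraries high in Arg1. For knockout against wild type with vehicle, 1 in place of 2 was called with no filter or with edgeR's newer fit, and 0 without the 4 libraries high in Arg1 or without the 4 wild-type libraries numbered 1. For dexamethasone against corticosterone, 2 in place of 1 were called in wild-type cells with DESeq2, with a replicate block or without the libraries high in Arg1, and 0 with only these groups, while in knockout cells 1 in place of 2 was called with only these groups. The cause of these moves was not tested, except that fits with fewer libraries have fewer residual degrees of freedom. With the replicate block 5 were called for IL4 against dexamethasone in knockout cells. For dexamethasone against vehicle in knockout cells 5 were called in place of 3, through Sesn1 (−0.19, adjusted p = 0.0413) and Sesn2 (0.16, adjusted p = 0.0303). In that comparison same-numbered libraries correlated at 0.268, 0.363 and 0.191 for numbers 1, 2 and 4, and number 3 alone fell short (0.00519). Both groups correlated by number with corticosterone (vehicle 0.112 to 0.274, dexamethasone 0.259 to 0.31), so a lack of pairing was not shown. Beside the genes given in the report, the block changed no other call among treatments within a genotype.

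Counts over all genes tested, behind the percentages in the report, also moved. With the replicate block they went from 866 to 1790 and 1996 to 3225 for corticosterone and dexamethasone in wild-type cells, and from 1762 to 2974 and 2684 to 4056 in knockout cells. With only the groups compared they went from 1996 to 1329 for dexamethasone in wild-type cells, 3873 to 1745 for IL4 in knockout cells, and for knockout against wild type from 2738 to 1641 with vehicle and 1802 to 616 with IL4. Without the libraries high in Arg1 they went from 1762 to 941, 2684 to 1789, 2738 to 1680 and, for knockout against wild type with dexamethasone, 2512 to 1378. Without the wild-type libraries numbered 1 they went from 866 to 486, 1802 to 1016 and, with corticosterone, 2102 to 1270. Over all alternatives, the counts between the glucocorticoids ran from 10 to 137 in wild-type (27 as reported) and from 19 to 274 in knockout cells (47), and those for a response that differs by genotype from 0 to 149 with IL4 (4), 0 to 110 with corticosterone (3) and 3 to 214 with dexamethasone (27). None of the 10 genes was called for such a difference in any of them. Depth limited Pik3ip1 most, at as few as 7 counts in a library.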
